A study of Homo sapiens with 6 samples.

Results

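Integrins are paired alpha and beta chains that bind matrix proteins, laminins are 3-chain proteins of basement membranes, and DDR2, CD44, dystroglycan and the syndecans are further matrix receptors. The 39 genes described here were taken from a fixed list of names. In the AGS and HGC-27 gastric cancer lines 35 of them had a probe set that the platform annotation assigns to a single gene, and 28 passed the filter on dim probe sets, of 13738 genes tested in all. Each gene was read by 1 probe set, the one with the highest mean log2 intensity over the 6 arrays. Intensities under 17.6, the 25th percentile of all values, were set to that floor before log2 was taken. A probe set passed the filter if at least 2 arrays exceeded the median of all values, 50.5. Intensities are printed as deposited. Both lines are human: AGS came from a gastric adenocarcinoma, and HGC-27 from a gastric carcinoma of undifferentiated type. Each line gave 3 one-colour arrays. The first held cells nucleofected with a MIST1 plasmid and a GFP plasmid, the second held cells nucleofected with empty vector and the GFP plasmid (the GFP control), and both were sorted on GFP. The third held untransfected parental cells. MIST1 is a basic helix-loop-helix transcription factor of mature secretory cells, and the study asked which genes its transient expression raises. The transfected populations took 3 µg of MIST1 or empty plasmid and 1.5 µg of GFP plasmid, were sorted after 24 h and were harvested after a further 24 h.

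Integrin pairs differ in what they bind. The alpha2 chain with beta1 binds collagens, alpha4 with beta1 binds fibronectin and VCAM1, and the alphaV pairs bind matrix proteins through an RGD motif. Alpha3 with beta1 and alpha6 with beta4 bind the epithelial laminin that holds the LAMB3 chain, and alpha6 with beta4 anchors hemidesmosomes. Behind the beta chains, integrin-linked kinase (ILK) forms a scaffold with parvins that connects them to actin.

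Each condition had 1 array per line, so the lines were the replicates of a condition, and for AGS against HGC-27 the 3 conditions stood in for replicates. The p-values of these comparisons therefore rest on how far AGS and HGC-27 disagree in their changes between conditions. That spread holds technical noise of single arrays and any difference of response between the lines together. Variation between cultures of a line was not measured. The median intensity per array ranged from 49.1 to 52.0. The 6 epithelial markers summed to intensities of 41694 to 48110 in AGS and of 1460 to 1703 in HGC-27, and the 5 mesenchymal markers to 336 to 369 in AGS and 14975 to 17168 in HGC-27. Most of the mesenchymal sum in HGC-27 was VIM, at 12532 to 13731. CDH2 was the 1 mesenchymal marker that did not pass between the lines, at 44.4 to 57.6 over all arrays. Among the epithelial markers KRT19 and CLDN4 lay under the floor of 17.6 on all HGC-27 arrays. KRT8 read 1349.5 to 1562 there and made up most of that sum. Leukocyte, endothelial, platelet and muscle marker sums ranged from 62.4 to 303 over all arrays. The leukocyte marker PTPRC read at most 52.4, and the endothelial marker CDH5 at most 20.3, on any array. PECAM1, also endothelial, passed the filter and read 80.9 to 101.

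The strongest contrast among the matrix receptors was between the lines. AGS carried the laminin-binding and collagen-binding epithelial chains ITGA2, ITGA3, ITGA6 and ITGB4 with the laminin chain LAMB3, and HGC-27 carried ITGA4, LAMA2, DDR2, SDC2 and more CD44. Of 28 members tested, 19 differed, 14 higher and 5 lower in AGS (limma with condition as a term, Benjamini-Hochberg adjusted p under 0.05 over all genes). The share of all genes that differed was 60.1%, with 33.1% higher and 27.1% lower in AGS, so the members' 67.9% is close to the background. At an unadjusted p under 0.05 the same 19 members and 64.1% of all genes differed. By size, 10 members were at least 2-fold higher in AGS in all 3 conditions, where 12.4% of all genes were. A further 4 were at least 2-fold lower, where 9.65% of all genes were. ITGA2, ITGB4 and LAMB3 passed the filter only through AGS arrays, and ITGA4, LAMA2, DDR2 and SDC2 only through HGC-27 arrays. These counts therefore hold genes that were tested because they are high in 1 line. The median difference was 0.33 on the log2 scale over the members and 0.06 over all genes.

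**Figure D1:**
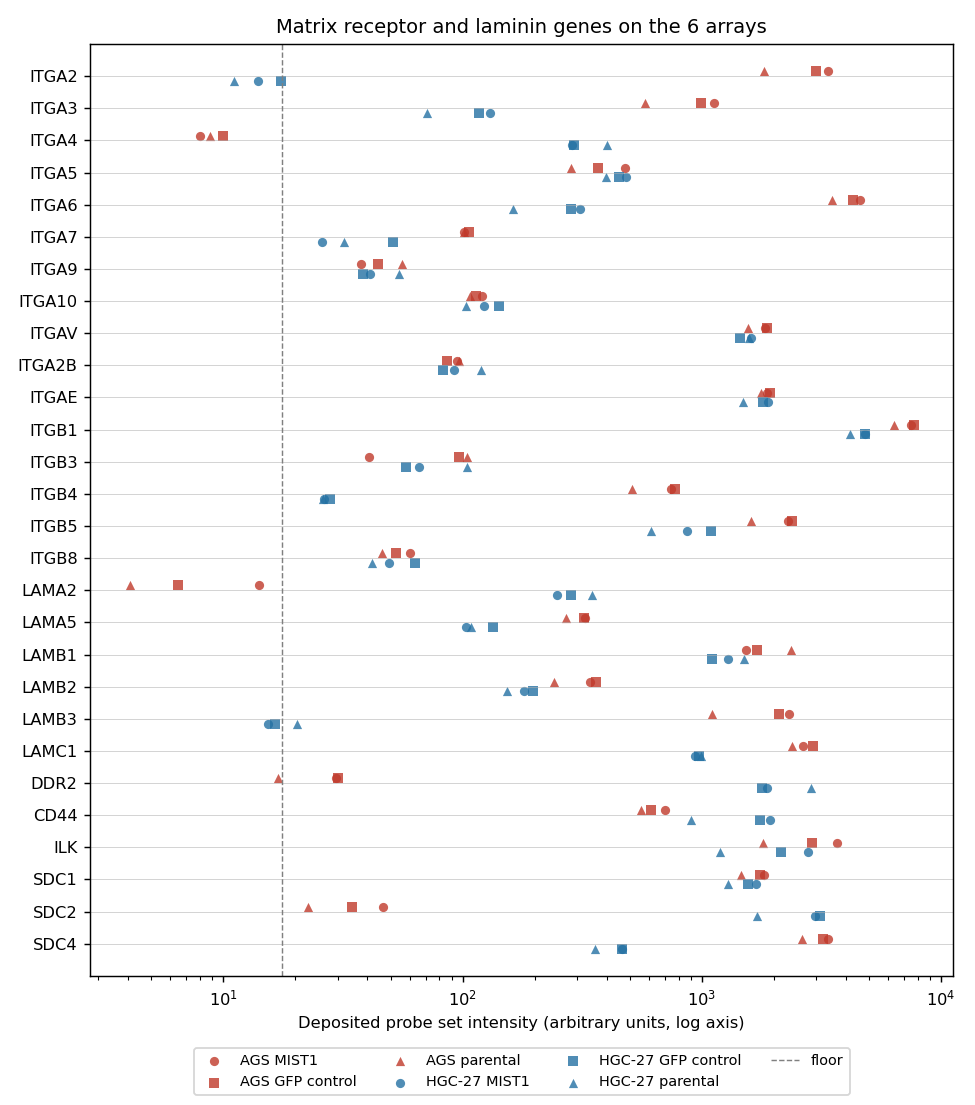
Deposited intensity (log axis) of the 28 members on the 6 arrays, with 1 point per array, red for AGS and blue for HGC-27, and the symbol for the condition. ITGA2, ITGB4 and LAMB3 lie far to the right in AGS, ITGA4, LAMA2, DDR2 and SDC2 far to the right in HGC-27, and ITGAV, ITGAE and SDC1 lie close together in both lines. The dashed line is the floor of 17.6.

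The alpha chains split by line. ITGA2 read 3372 with MIST1, 3009 in the GFP control and 1811 in parental AGS cells, against 13.9, 17.3 and 11.1 in HGC-27. All 3 HGC-27 values lay under the floor, so the difference of 7.23 (SE 0.19, limma adjusted p = 5.84e-07) is set by the floor and understated. Its other probe set, at 1948, 1683 and 690 in AGS against 11.3, 5.35 and 23.3 in HGC-27, showed the same split. ITGA6 read 4567 with MIST1, 4292 in the GFP control and 3494 in parental AGS cells, against 311, 284 and 162 in HGC-27, a difference of 4.07 (SE 0.13, limma adjusted p = 1.08e-06). ITGA3 was 1121 with MIST1, 991 in the GFP control and 577 in parental AGS cells, against 130.4, 117 and 71.0 in HGC-27, and differed by 3.07 (SE 0.11, limma adjusted p = 1.7e-06). For ITGA3 and ITGA6 the lowest AGS array lay above the highest HGC-27 array. In the other direction ITGA4, the chain that leukocytes use to bind VCAM1, read 7.95 with MIST1, 9.94 in the GFP control and 8.80 in parental AGS cells, against 287, 292 and 401 in HGC-27. Every AGS value of ITGA4 lay under the floor, and the difference of -4.20 (SE 0.17, limma adjusted p = 2.77e-06) is understated. All 4 of its probe sets were lower in AGS. ITGA7, a laminin-binding chain of muscle, read 101 with MIST1, 106 in the GFP control and 101 in parental AGS cells, against 25.9, 51.1 and 31.98 in HGC-27, a difference of 1.56 (SE 0.22, limma adjusted p = 0.000857). A second ITGA7 probe set read 44.9, 55.2 and 43.4 in AGS against 62.0, 44.9 and 34.8 in HGC-27, so the groups overlapped there.

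The remaining alpha chains that passed the filter did not pass the test between lines. ITGAV, the chain of the RGD-binding pairs, read 1839 with MIST1, 1874 in the GFP control and 1566 in parental AGS cells, against 1604, 1448 and 1574 in HGC-27, a difference of 0.19 (SE 0.10). ITGAE, the partner of beta7 on intraepithelial lymphocytes, read 1867 with MIST1, 1919 in the GFP control and 1766 in parental AGS cells, against 1884, 1804 and 1488 in HGC-27, a difference of 0.11 (SE 0.08). The ranges of the lines overlapped for both genes. ITGA5, the fibronectin receptor chain, differed by -0.26 (SE 0.13, limma adjusted p = 0.127). ITGA9, ITGA10 and the platelet chain ITGA2B read at most 142 on any array.

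Among the beta chains ITGB1, the common partner of most alpha chains, read 7491 with MIST1, 7681 in the GFP control and 6341 in parental AGS cells, against 4809.6, 4811 and 4170.1 in HGC-27. Its difference of 0.64 (SE 0.05, limma adjusted p = 3.82e-05) was small beside those of the alpha chains, with no overlap between the lines. ITGB4, the alpha6 partner in hemidesmosomes, read 745 with MIST1, 769.6 in the GFP control and 512 in parental AGS cells, against 26.4, 27.8 and 26.2 in HGC-27. It differed by 4.63 (SE 0.16, limma adjusted p = 1.34e-06), and all 3 of its probe sets that passed the filter were higher in AGS. ITGB5, a partner of alphaV, read 2290.2 with MIST1, 2379.8 in the GFP control and 1605 in parental AGS cells, against 868, 1093 and 612 in HGC-27, a difference of 1.30 (SE 0.09, limma adjusted p = 3.7e-05). Its probe set name ends in _x_at, which marks possible cross-hybridization, and its 3 other probe sets that passed were also higher in AGS. ITGB3, the platelet and endothelial beta chain, and ITGB8 stayed at or below 105 on every array and differed by 0.02 (SE 0.27) and 0.06 (SE 0.19). A second ITGB8 probe set read 62.0 with MIST1, 70.95 in the GFP control and 53.85 in parental AGS cells, against 36.45, 46.9 and 24.95 in HGC-27, a difference of 0.82 with no overlap.

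Of the 6 laminin chains tested, 5 were higher in AGS and 1 was lower. LAMB3, the beta chain of the epithelial laminin, read 2317 with MIST1, 2109 in the GFP control and 1105 in parental AGS cells, against 15.4, 16.5 and 20.2 in HGC-27. The lowest AGS value of LAMB3 was 54.6-fold the HGC-27 value of the same condition, and with 2 of the HGC-27 arrays under the floor the difference of 6.57 (SE 0.25, limma adjusted p = 2.18e-06) is understated. LAMC1, the gamma chain shared by most laminins, read 2654 with MIST1, 2925 in the GFP control and 2374 in parental AGS cells, against 936, 978 and 991 in HGC-27, a difference of 1.45 (SE 0.09, limma adjusted p = 1.99e-05). These groups did not overlap. LAMA5, the alpha chain of most adult epithelial basement membranes, read 326 with MIST1, 322 in the GFP control and 270.00 in parental AGS cells, against 103, 134 and 108 in HGC-27, a difference of 1.41 (SE 0.14, limma adjusted p = 0.000157). LAMB2 read 342 with MIST1, 360.3 in the GFP control and 241 in parental AGS cells, against 179.8, 196 and 153 in HGC-27, and differed by 0.82 (SE 0.12, limma adjusted p = 0.00126). Both chains were higher on every AGS array than on any HGC-27 array. LAMB1, a beta chain found in many tissues, differed by 0.51 (SE 0.10, limma adjusted p = 0.00527). The parental HGC-27 array lay at 1496 for LAMB1, between the AGS MIST1 array at 1528 and the other HGC-27 arrays, so its separation was narrow, and without the filter on dim probe sets its adjusted p was 0.0599. LAMA2, the alpha chain of muscle and nerve laminins, read 14.1 with MIST1, 6.44 in the GFP control and 4.05 in parental AGS cells, against 247, 284 and 348 in HGC-27. Its AGS values all lay under the floor, and on this probe set the difference of -4.04 (SE 0.17, limma adjusted p = 3.17e-06) is understated. The other LAMA2 probe sets that passed the filter gave smaller differences of -3.51 and -3.72.

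DDR2, a receptor tyrosine kinase for fibrillar collagens, read 29.4 with MIST1, 30.2 in the GFP control and 16.9 in parental AGS cells, against 1866, 1793 and 2857 in HGC-27. That was a difference of -6.41 (SE 0.29, limma adjusted p = 4.06e-06), with 4 of 4 probe sets lower in AGS and the parental AGS value under the floor. CD44, the hyaluronan receptor, read 701 with MIST1, 611 in the GFP control and 557 in parental AGS cells, against 1926, 1749.7 and 904 in HGC-27, a difference of -1.23 (SE 0.17, limma adjusted p = 0.000853). Of the 9 CD44 probe sets that passed the filter, 7 were lower and 2 higher in AGS, and those 2 stayed at or below 109 on every array. The lines did not overlap for DDR2 or, on the probe set used, for CD44. The size depended on the probe set. Read by the probe set of highest mean linear intensity, CD44 was 395, 347 and 257 in AGS against 3387, 2884 and 1474 in HGC-27, a difference of -2.89. ILK read 3684 with MIST1, 2875 in the GFP control and 1809 in parental AGS cells, against 2787, 2140.3 and 1189 in HGC-27, a difference of 0.48 (SE 0.07, limma adjusted p = 0.00148) with overlapping ranges.

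Syndecans are transmembrane heparan sulfate proteoglycans that act with integrins. SDC4, the syndecan of focal adhesions, read 3374 with MIST1, 3199 in the GFP control and 2615 in parental AGS cells, against 462, 462 and 357 in HGC-27, a difference of 2.84 (SE 0.08, limma adjusted p = 7.89e-07). SDC2 went the other way, at 46.4 with MIST1, 34.6 in the GFP control and 22.6 in parental AGS cells, against 2962, 3109 and 1699 in HGC-27, which gave -6.24 (SE 0.14, limma adjusted p = 3.71e-07) with 3 of 3 probe sets lower in AGS. Neither gene's ranges overlapped between the lines. SDC1, the main syndecan of epithelia, read 1823 with MIST1, 1755 in the GFP control and 1458 in parental AGS cells, against 1679, 1557 and 1282 in HGC-27, and did not pass with overlapping ranges (0.16, SE 0.08, limma adjusted p = 0.113).

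**Figure D2:**
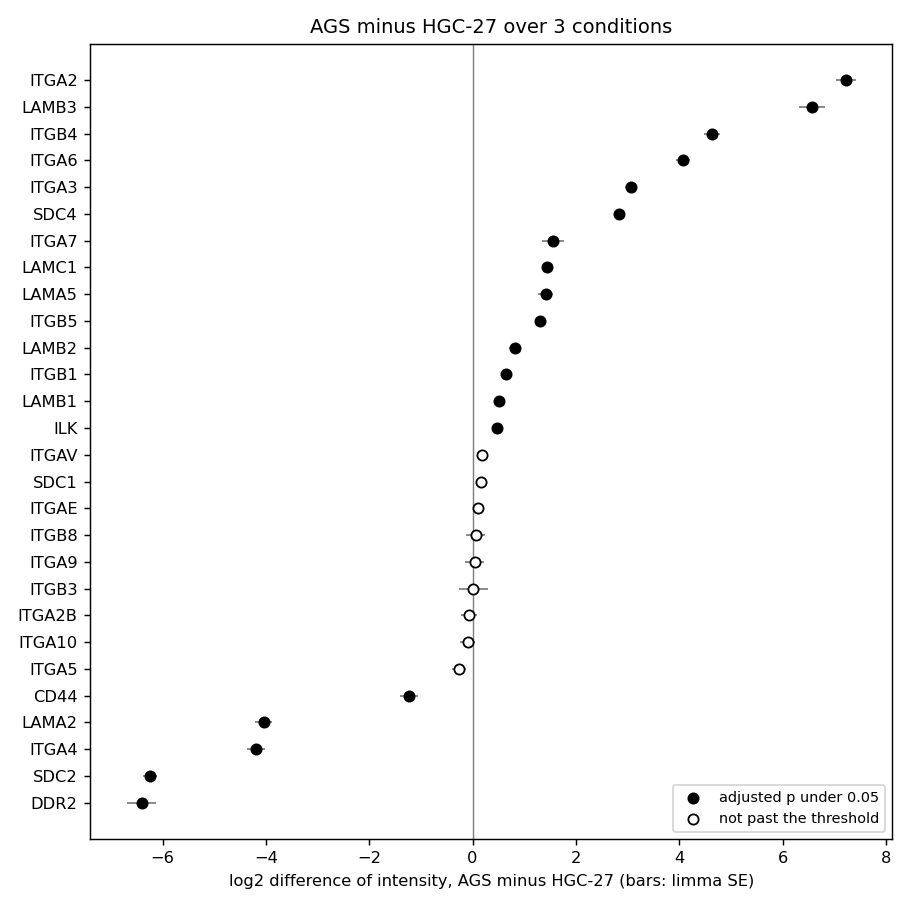
Difference of log2 intensity between AGS and HGC-27, over 3 conditions per line, for the 28 members in order of size, with bars for the limma SE. Filled points passed the adjusted threshold. ITGA2 at 7.23 and LAMB3 at 6.57 stand at the AGS end, and DDR2 at -6.41 and SDC2 at -6.24 at the HGC-27 end.

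The start regions of the genes that differed most between the lines, among those with a window, and of ILK are shown because MIST1 belongs to a class of factors that bind E-boxes, written CANNTG. The windows are RefSeq promoters of build GRCh38.p14, from 250 bases before to 50 after the gene start, 5′ to 3′ on the gene's strand, with every CANNTG in capitals. A window was used for 31 of the 39 genes, SDC2 and ITGB4 not among them, and those of ITGA2, LAMB3 and ITGA6 (higher in AGS), DDR2 and ITGA4 (lower in AGS) and ILK (highest with MIST1 in both lines) follow. They lie at chr5:52989102-52989401 (+ strand), chr1:209652376-209652675 (- strand), chr2:172427086-172427385 (+ strand), chr1:162630613-162630912 (+ strand), chr2:181457136-181457435 (+ strand) and chr11:6603524-6603823 (+ strand).
ITGA2: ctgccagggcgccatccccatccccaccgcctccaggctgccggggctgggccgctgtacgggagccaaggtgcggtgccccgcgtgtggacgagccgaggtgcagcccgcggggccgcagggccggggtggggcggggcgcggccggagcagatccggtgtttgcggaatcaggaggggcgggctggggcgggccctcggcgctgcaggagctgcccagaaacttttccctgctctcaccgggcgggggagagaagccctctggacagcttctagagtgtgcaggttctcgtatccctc
LAMB3: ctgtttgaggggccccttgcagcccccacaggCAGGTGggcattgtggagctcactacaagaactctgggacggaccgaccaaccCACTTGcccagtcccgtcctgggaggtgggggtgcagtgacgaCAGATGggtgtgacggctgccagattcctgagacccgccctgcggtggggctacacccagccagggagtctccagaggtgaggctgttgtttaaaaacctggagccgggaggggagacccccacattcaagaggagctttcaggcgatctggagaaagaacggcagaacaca
ITGA6: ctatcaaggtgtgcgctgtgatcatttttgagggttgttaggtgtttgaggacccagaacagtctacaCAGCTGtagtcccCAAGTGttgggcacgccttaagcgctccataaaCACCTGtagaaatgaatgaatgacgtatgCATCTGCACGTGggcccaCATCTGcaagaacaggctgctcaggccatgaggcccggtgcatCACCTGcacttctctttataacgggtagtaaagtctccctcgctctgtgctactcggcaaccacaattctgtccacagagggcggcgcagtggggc
DDR2: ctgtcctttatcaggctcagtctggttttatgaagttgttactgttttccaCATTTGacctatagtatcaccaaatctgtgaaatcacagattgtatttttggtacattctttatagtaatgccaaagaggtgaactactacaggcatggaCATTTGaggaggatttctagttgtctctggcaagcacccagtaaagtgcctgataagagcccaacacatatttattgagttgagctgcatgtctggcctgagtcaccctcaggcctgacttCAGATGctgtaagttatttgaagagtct
ITGA4: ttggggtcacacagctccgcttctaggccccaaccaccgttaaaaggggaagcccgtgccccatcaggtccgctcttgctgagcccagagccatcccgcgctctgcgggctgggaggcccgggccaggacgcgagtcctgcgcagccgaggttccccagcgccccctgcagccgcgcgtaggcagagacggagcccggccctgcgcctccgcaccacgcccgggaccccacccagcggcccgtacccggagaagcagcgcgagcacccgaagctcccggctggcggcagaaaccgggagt
ILK: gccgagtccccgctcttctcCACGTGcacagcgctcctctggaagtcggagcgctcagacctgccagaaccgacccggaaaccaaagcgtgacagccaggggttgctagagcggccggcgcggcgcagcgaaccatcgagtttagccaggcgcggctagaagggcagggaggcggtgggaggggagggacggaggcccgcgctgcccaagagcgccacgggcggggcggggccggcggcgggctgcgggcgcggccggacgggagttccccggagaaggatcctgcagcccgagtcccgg
The ITGA6 window held 7 E-boxes, those of LAMB3 and DDR2 3 each, that of ILK 1, and those of ITGA2 and ITGA4 0. The pattern CANNTG, which is the same on both strands, occurred in 16 of the 31 windows (51.6%) and in 68.7% of 35116 windows of the same length over all genes. The E-box CAGCTG was in 7 of the 31 (22.6%) and in 17.9% of all windows, and CATATG in 0 of the 31 and 3.04% of all. The GC box GGGCGG, searched on both strands as GGGCGG or CCGCCC, was in 18 of the 31 (58.1%) and in 45.0% of all windows. The DDR2 window had 0 CpG dinucleotides and 41.0% G and C, against 31 CpG and 72.3% in that of ITGA4 and 27 CpG and 72.7% in that of ITGA2. The median over all windows was 14 CpG and 58.7% G and C. These matches describe the windows shown and are not binding sites.

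MIST1 against the GFP control tests the study's own question in these genes. ILK had the largest mean difference above 0 among the 28 members tested, at 3684 with MIST1 against 2875 in the GFP control in AGS, and 2787 against 2140.3 in HGC-27. Outside the filter, ITGA1 read 33.3 with MIST1 against 25.15 in the GFP control in AGS, and 38.2 against 26.5 in HGC-27. The ratio for ILK was 1.28-fold in AGS and 1.30-fold in HGC-27, and both MIST1 arrays lay above both other arrays of their line. With all 6 arrays, 0 of 28 members and 0 of 13738 genes (0%) passed in limma. At an unadjusted p under 0.05 there was 1 member, ILK, and 184 genes (1.34%). The difference of ILK was 0.37 (SE 0.09, limma adjusted p = 1). In the fit of only the 4 arrays compared, 59 genes (0.429%) passed, and ILK was the 1 member among them, at 0.37 with an SE of 0.04 and a limma adjusted p of 0.00682. Higher in that fit were 53 genes (0.386%). At an unadjusted p under 0.05 it held 5 members (ITGA5, ITGA7, ITGB5, CD44 and ILK) and 12.6% of all genes. With either parental array left out, the remaining one is fitted by its own term, so the fit repeats the 4-array comparison. The ILK difference there was again 0.37, which is no further support. ILK did not pass in the 12 other alternatives.

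The other members moved little or unevenly with MIST1. Higher in both lines at any size were 7 members, where 24.5% of all genes were, and lower in both were 6, where 32.7% of all genes were. The median difference was 0.01 over the members and -0.02 over all genes. At 1.5-fold or more above the GFP control there were 0 members in AGS, where 1.11% of genes were, and 0 in HGC-27, where 1.27% were. ITGB3 was at least 1.5-fold lower in AGS, at 40.8 with MIST1 against 96.5 in the GFP control, but read 65.9 against 57.8 in HGC-27. ITGA7 was at least 1.5-fold lower in HGC-27, at 25.9 with MIST1 against 51.1, and read 101 against 106 in AGS. The 3 other ITGB3 probe sets that passed the filter read 52.15, 55.87 and 61.78 with MIST1 against 39.02, 39.35 and 63.95 in the GFP control in AGS. The other ITGA7 probe set read 62.0 with MIST1 against 44.9 in the GFP control in HGC-27, in the opposite direction. Over all genes, differences of 1.5-fold or more below the GFP control were seen for 0.713% of genes in AGS and 1.14% in HGC-27. ITGA5 read 476 with MIST1 against 369 in the GFP control in AGS, and 481 against 449 in HGC-27. The laminin-binding chains differed by 0.17 (SE 0.14) for ITGA3, 0.11 (SE 0.16) for ITGA6 and -0.06 (SE 0.20) for ITGB4, none past the test.

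**Figure D3:**
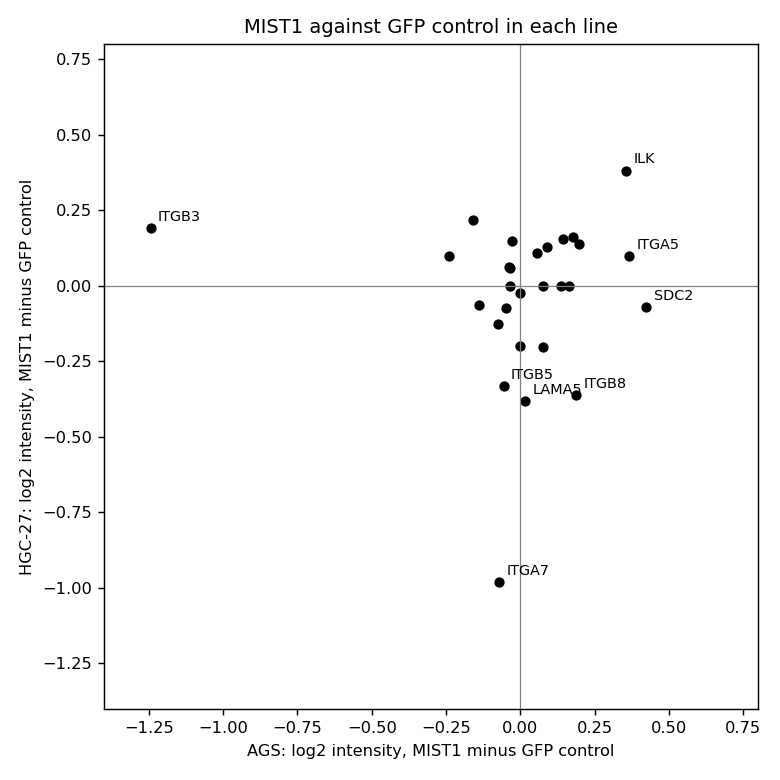
Log2 intensity with MIST1 minus that of the GFP control for the 28 members, AGS on the horizontal and HGC-27 on the vertical axis, with names for members past 0.3 in either line. ILK lies at 0.36 and 0.38, above 0 in both lines, while ITGB3 in AGS (-1.24) and ITGA7 in HGC-27 (-0.98) stand apart in 1 line.

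Transfected cells, MIST1 and GFP control together, were then compared with parental cells of their line. Cells that had been transfected and sorted had more ILK, ITGA3, SDC2, ITGA6, ITGB5 and ITGB1 mRNA signal than parental cells. In such bulk RNA, a changed share of cells of a kind and a change of RNA per cell cannot be told apart. These 6 of 28 members passed the limma test, all of them higher, where 8.23% of all genes passed and 5.34% were higher. In limma 0 of 28 were lower past the test, where 2.89% of genes were. At an unadjusted p under 0.05, in either direction, there were 13 members and 30.1% of all genes. All 4 transfected arrays were above the parental array of their line for 15 members, a count to be read against 30.1% of all genes. They were below it for 4 members, against 18.8% of genes. The median difference was 0.27 over the members and 0.06 over all genes.

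ILK read 3684 with MIST1 and 2875 in the GFP control, against 1809 in parental cells, in AGS, and 2787 and 2140.3 against 1189 in HGC-27. The mean change was 1.80-fold in AGS and 2.05-fold in HGC-27, or 0.94 (SE 0.08, limma adjusted p = 0.0166). ITGA3 read 1121 with MIST1 and 991 in the GFP control, against 577 in parental cells, in AGS, and 130.4 and 117 against 71.0 in HGC-27, which gave 0.83 (SE 0.12, limma adjusted p = 0.023). The GFP control alone stood above parental cells by 1.59-fold and 1.80-fold for ILK and 1.72-fold and 1.64-fold for ITGA3. ILK, ITGA3 and SDC2 were at least 1.5-fold above parental cells on all 4 transfected arrays, as 2.21% of all genes were.

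SDC2 was 46.4 with MIST1 and 34.6 in the GFP control, against 22.6 in parental cells, in AGS, and 2962 and 3109 against 1699 in HGC-27, a difference of 0.83 (SE 0.15, limma adjusted p = 0.0299). Its AGS values lay below the median intensity, and its 2 other probe sets differed by 0.21 and 0.08. ITGA6 read 4567 with MIST1 and 4292 in the GFP control, against 3494 in parental cells, in AGS, and 311 and 284 against 162 in HGC-27. It rose by 0.61 (SE 0.14, limma adjusted p = 0.049), at 1.27-fold in AGS and 1.83-fold in HGC-27. ITGB5 read 2290.2 with MIST1 and 2379.8 in the GFP control, against 1605 in parental cells, in AGS, and 868 and 1093 against 612 in HGC-27, a difference of 0.61 (SE 0.10, limma adjusted p = 0.0271). ITGB1 rose by 0.23 (SE 0.05, limma adjusted p = 0.0423), and its 2 other probe sets that passed the filter differed by 0.45 and 0.26. All 4 transfected arrays lay above the parental array of their line for ITGA6, ITGB5 and ITGB1. Together the called members had 8 other probe sets past the filter, all 8 in the same direction for the mean over the lines. An ITGB5 probe set among them differed by 0.09 and was lower in transfected HGC-27 cells, at 42.9 and 45.2 against 54.7. Another of ITGB5 read 121 with MIST1 and 90.9 in the GFP control against 113 in parental AGS cells.

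On the probe set used, LAMB1 was the laminin chain with the clearest difference in the other direction. The other LAMB1 probe set past the filter differed by only -0.14. It read 976 with MIST1 and 950 in the GFP control against 1197 in parental AGS cells, and 656 and 624 against 627 in HGC-27. In AGS the probe set used read 1528 with MIST1 and 1706 in the GFP control, against 2366 in parental cells. The HGC-27 values were 1287 and 1106 against 1496. Its difference of -0.44 (SE 0.11, limma adjusted p = 0.0607) lay outside the threshold. SDC1 at 0.32 (SE 0.08, limma adjusted p = 0.0606) and SDC4 at 0.35 (SE 0.09, limma adjusted p = 0.061) were above parental cells on all 4 transfected arrays and also outside it. ITGB3 differed by -0.75 (SE 0.29, limma adjusted p = 0.146). Of its 4 probe sets past the filter, 3 were lower and 1 was higher, at 0.41.

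**Figure D4:**
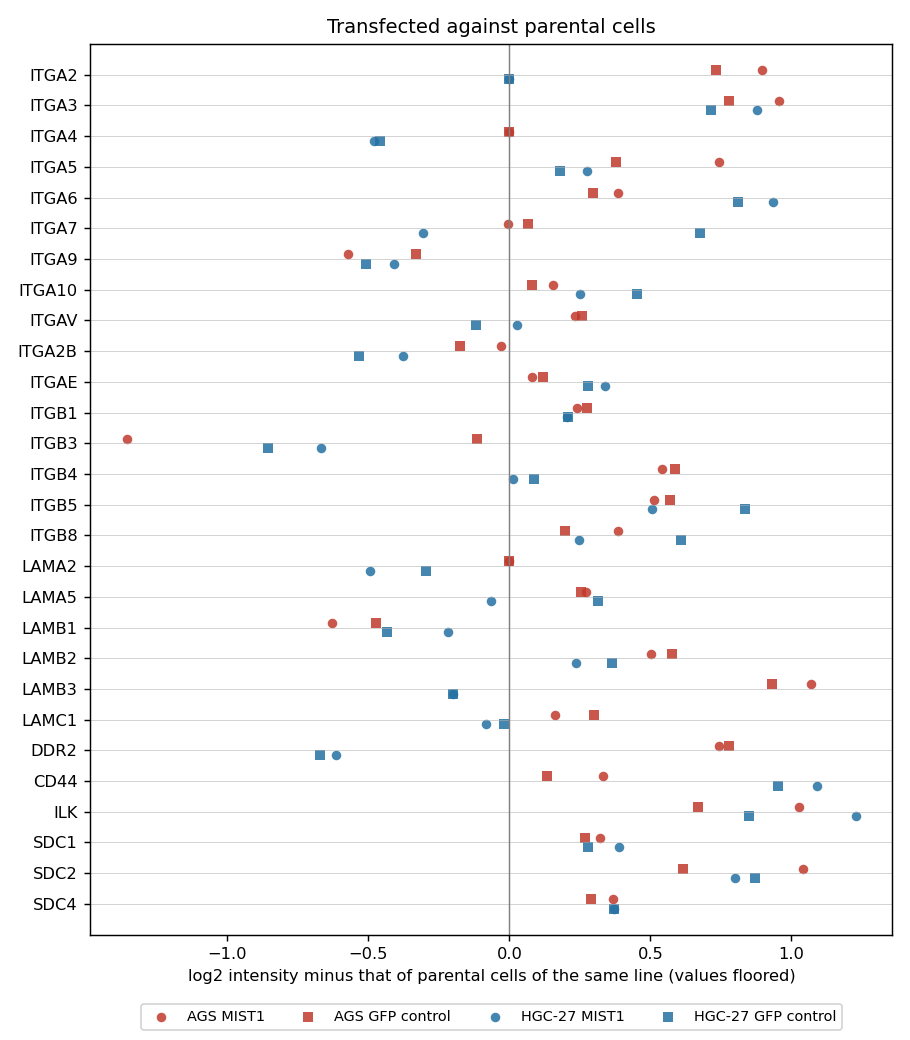
Log2 intensity of each transfected array minus that of parental cells of the same line, for the 28 members, red for AGS and blue for HGC-27, circles for MIST1 and squares for the GFP control. ILK, ITGA3 and SDC2 lie beyond 0.58, which is 1.5-fold, on all 4 arrays, while LAMB3, DDR2 and CD44 separate by line. The HGC-27 points of LAMB3 are set by the floor.

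RNA features of the arrays moved with this comparison. MALAT1, a nuclear non-coding RNA, read 529 with MIST1 and 389.6 in the GFP control, against 3685 in parental cells, in AGS, and 382 and 324 against 1566 in HGC-27. The mitochondrial COX3 read 71.2 with MIST1 and 70.0 in the GFP control, against 376 in parental cells, in AGS, and 67.7 and 62.2 against 456 in HGC-27. Over all genes the transfected arrays differed by a median of 0.00 in AGS and 0.11 in HGC-27 (log2), and 0.02 in HGC-27 after quantile normalization. After quantile normalization 8 members passed, ITGB1 not among them (0.18, limma adjusted p = 0.0683). The part of RNA quality or handling in the members' changes was not tested, and transfection, sorting and sample handling cannot be told apart here. The 6 calls were also sensitive to the fit, with 1 member past the threshold for the GFP control alone against parental cells, 0 with no filter and 3 when the GFP control of HGC-27 was left out. Leaving out a parental array left the change in the other line alone, so its counts are no check of these calls.

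For the change with transfection, AGS minus HGC-27, 4 of 28 members passed the limma interaction, 3 with a higher value in AGS and 1 with a lower. MIST1 and GFP control were taken as replicates and each line had 1 parental array, so these p-values rest on the spread between the transfected arrays alone. CD44 was the 1 member of the 4 above the floor on all 6 arrays. ITGA2 and LAMB3 passed the filter only through AGS and DDR2 only through HGC-27. Over all genes 10.2% passed, 2.66% higher and 7.54% lower, and at an unadjusted p under 0.05 there were 7 members and 31.4% of all genes. LAMB3 was 2317 with MIST1 and 2109 in the GFP control against 1105 in parental AGS cells, and at most 20.2 in HGC-27, an interaction of 1.20 (SE 0.18, limma adjusted p = 0.0197). ITGA2 was 1.76-fold above parental cells in AGS and under the floor throughout HGC-27, which gave 0.81 (SE 0.18, limma adjusted p = 0.0398). With no floor beyond 1 intensity unit the ITGA2 value was 0.33 (SE 0.24, limma adjusted p = 0.38). No change in HGC-27 was measured for ITGA2, so its value describes AGS and is no measured difference between the lines. In HGC-27 LAMB3 read 15.4 with MIST1 and 16.5 in the GFP control, both under the floor, against 20.2 in parental cells. The size of its HGC-27 change was therefore set by the floor. With no floor beyond 1 intensity unit the LAMB3 value was 1.34, from equally dim HGC-27 readings. The LAMB3 value thus also describes AGS and is no measured difference between the lines.

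DDR2 read 1866 with MIST1 and 1793 in the GFP control against 2857 in parental HGC-27 cells. In AGS it stayed near the floor, so its interaction of 1.40 (SE 0.16, limma adjusted p = 0.0122) draws on dim values, and its 3 other probe sets gave 0.41, 0.00 and -0.14. CD44 was 1.18-fold above parental cells in AGS and 2.03-fold in HGC-27, an interaction of -0.79 (SE 0.16, limma adjusted p = 0.0355), and 8 of 8 other CD44 probe sets past the filter were on the same side. Leaving out any 1 transfected array left 0 members past the threshold, with limma adjusted p from 0.163 to 0.239 for these genes, and without a parental array the comparison could not be fitted. ITGB4 (0.51, limma adjusted p = 0.117) and ITGA6 (-0.53, limma adjusted p = 0.0538) did not pass.

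Other genes of the adhesion machinery were read from lists. Beside all counts that follow stand the shares of all genes, which were 5.34% higher and 2.89% lower in transfected cells, 33.1% higher and 27.1% lower in AGS, and 2.66% higher and 7.54% lower in the interaction. Of 25 focal adhesion adaptors tested, 8 were higher and 0 lower in transfected than in parental cells, with a median of 0.30 against 0.06 for all genes. They included NEDD9, a scaffold of FAK signalling, at 1.53 (SE 0.31, limma adjusted p = 0.0373), and PXN, which encodes paxillin, at 0.77 (SE 0.15, limma adjusted p = 0.0362). ZYX (zyxin) was at 0.68 (SE 0.12, limma adjusted p = 0.0321), and PARVA, a parvin that binds ILK, at 0.56 (SE 0.13, limma adjusted p = 0.0494). ACTN1, an actin crosslinker, was at 0.54 (SE 0.06, limma adjusted p = 0.0211) and TNS3, a tensin, at 0.51 (SE 0.09, limma adjusted p = 0.0334). In the interaction 2 adaptors were lower in AGS, NEDD9 at -1.43 (SE 0.18, limma adjusted p = 0.0155) and PXN at -0.62 (SE 0.12, limma adjusted p = 0.0307). NEDD9 read 6.83 in parental HGC-27 cells, under the floor, so the size of its change in HGC-27 was set by the floor. Between the lines 18 adaptors were higher and 4 lower in AGS. FERMT2, an integrin activator of the kindlin family, read 9.06 with MIST1, 8.30 in the GFP control and 4.75 in parental AGS cells, against 3139, 2727 and 2146 in HGC-27. SRC, a tyrosine kinase of adhesion signalling, read 282 with MIST1, 321 in the GFP control and 297 in parental AGS cells, against 48.9, 48.1 and 32.3 in HGC-27.

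Of 15 integrin ligands tested, 2 were higher in transfected cells, THBS1 at 1.47 (SE 0.25, limma adjusted p = 0.028) and L1CAM at 1.04 (SE 0.23, limma adjusted p = 0.046), and 6 were higher and 6 lower in AGS than in HGC-27. In the interaction 1 ligand was higher and 5 were lower, among them THBS1 at -1.11 (SE 0.16, limma adjusted p = 0.0197) and L1CAM at -1.04 (SE 0.15, limma adjusted p = 0.0197). THBS1 read 1339 with MIST1 and 1237 in the GFP control, against 684 in parental cells, in AGS, and 215 and 196 against 50.6 in HGC-27. L1CAM read 1862 with MIST1 and 1845 in the GFP control, against 1291 in parental cells, in AGS, and 371 and 422 against 134 in HGC-27. FN1 (fibronectin) and VCAM1, both ligands of the ITGA4 pair, were lower in AGS, at a difference of -3.89 (SE 0.18, limma adjusted p = 5.25e-06) and of -4.58 (SE 0.18, limma adjusted p = 2.47e-06). Their AGS values, at most 19.7 and 20.5, lay near or under the floor. Of the other ligands NPNT differed by -4.60 (SE 0.25), CCN2 by 4.45 (SE 0.21) and ICAM1 by 3.69 (SE 0.14). Of 10 basement membrane and hemidesmosome genes 6 were higher in AGS, among them COL4A1 at 2.88 (SE 0.17, limma adjusted p = 1.57e-05), and 0 passed for transfected against parental cells averaged over the lines. In the interaction 2 of the 10 were higher in AGS, DST at 0.80 (SE 0.16, limma adjusted p = 0.0334) and PLEC at 0.67 (SE 0.14, limma adjusted p = 0.037). Of 7 integrin-associated membrane proteins, CD9 was higher in transfected cells, at 0.85 (SE 0.15, limma adjusted p = 0.0323), and 5 were higher and 1 lower in AGS. Of 6 other proteoglycans, GPC1 at 1.06 (SE 0.14, limma adjusted p = 0.0222) and GPC3 at 0.75 (SE 0.17, limma adjusted p = 0.0476) were higher in transfected cells, and 2 were higher and 3 lower in AGS. Of 9 genes of the dystroglycan complex, 0 passed for transfected against parental cells, 1 was higher and 4 were lower in AGS, and SNTB1 passed the interaction at -0.92 (SE 0.16, limma adjusted p = 0.0272). Among the 4 leukocyte alpha chains 2 were tested, and ITGAD was lower in AGS at intensities of at most 104. In MIST1 against the GFP control 0 genes of these lists passed.

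The other 11 listed genes gave no test. ITGA1, ITGA8, ITGA11, ITGB2, ITGB7, LAMA1 and LAMA4 had probe sets that failed the filter, with intensities from 1.38 to 94.8. Of these, LAMA1 was above the median only in HGC-27 parental cells, at 94.8, and ITGB2, the leukocyte beta chain, only in the same array, at 67.1. ITGB6 and DDR1 were read only by probe sets assigned to several genes, and LAMA3 and DAG1 were not analysed here.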

How the data were processed

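The 6 one-colour Affymetrix arrays were 1 per line and condition. The authors deposited 1 intensity per probe set and array on a linear scale; the series text names dChip, and the background correction and scaling are not given in the sources used here. Per the labels, 5 µg of total RNA was labelled per array. Of 54675 probe sets, 41097 had 1 gene, 1801 several and 11777 none listed. Symbols were updated through the gene ID. Intensities were used as deposited, floored at the 25th percentile (17.6) and taken to log2. Probe sets with at least 2 arrays above the median (50.5) were kept. Tests were made with limma 3.58.1 (R 4.3.3; lmFit and eBayes with trend, two-sided, Benjamini-Hochberg over 13738 genes, threshold 0.05) on all 6 arrays, with cell line as a block for conditions. There were 2 residual and 4.47 prior degrees of freedom (4.35 for the interaction). The code was tested on simulated data.

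Lines pair the arrays: arrays of a line correlated at 0.971 to 0.996, those of different lines at 0.704 to 0.730, and deviations from the condition means correlated at 0.943 or more within a line. The members and lists were chosen with earlier results of these data known. All members are accounted for. Those past the threshold, 2-fold apart between lines or 1.5-fold changed in both lines were to be given with array values, and listed genes past the threshold up to 6 per list and comparison. Alternatives were other floors, no filter, quantile normalization, other probe set rules, no trend, no block, fewer arrays and leaving out each array.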

Additional observations from a re-analysis of the deposited data

Results flagged for a closer look

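For 4 members the change of transfected against parental cells passed the interaction test of AGS and HGC-27, given as AGS minus HGC-27 on the log2 scale. The value was 0.81 for ITGA2, 1.20 for LAMB3, 1.40 for DDR2 and -0.79 for CD44. ITGA2 lay under the floor on all HGC-27 arrays, and with no floor beyond 1 intensity unit its value was 0.33 (limma adjusted p = 0.38). LAMB3 lay under the floor on both transfected HGC-27 arrays and near it in parental HGC-27 cells, so its HGC-27 change was set by the floor. DDR2 was near the floor in AGS. Each line had 1 parental array, so the spread of that group was not measured.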

How the results depend on the processing

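For AGS against HGC-27 the number of members past the threshold stayed between 19 and 21 under 14 alternatives, and the direction of each called member held in all of them. The other counts moved. For MIST1 against the GFP control, 0 members became 1 (ILK) with only the 4 arrays compared. Leaving out a parental array repeats that comparison and is no separate alternative. For transfected against parental cells, 6 members became 3 with the median as floor, 0 with no filter, 3 with the mean of all probe sets, 2 with no variance trend, 0 with no replicate block and 1 with the GFP control alone. Leaving out 1 array gave 3 to 18, lowest without the HGC-27 GFP control and highest without the HGC-27 parental array. The count over all genes, 1131 as reported, was 650, 0, 645, 265, 0 and 37 under the same settings, and 5814 and 5403 without the AGS or the HGC-27 parental array. For the difference of this change between lines, 4 members became 0 with the median as floor, 2 with no filter and 2 with no variance trend, while leaving out 1 array gave 0. The count over all genes, 1401 as reported, was 110, 653 and 178 in the same order. No called member turned its direction under any alternative run. With no filter the dim genes enter both the variance fit shared over genes and the adjustment. For ILK in transfected against parental cells the SE was then 0.06 and the limma adjusted p 0.122, against 0.08 and 0.0166 with the filter. The cause of the shifts was not tested. The choice of probe set by linear intensity and the fit of only the 4 transfected arrays were added after seeing the data. The number of arrays limits the precision of all values.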

Other observations

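TNC, which encodes the matrix glycoprotein tenascin C and is an integrin ligand outside the members, read 224 with MIST1 and 165 in the GFP control against 16.5 in parental HGC-27 cells. TNC was under the floor on all AGS arrays, and its interaction of line and transfection was -3.45 (SE 0.35, limma adjusted p = 0.00962). No change in AGS was measured, so this value describes HGC-27 and is no measured difference between the lines. The parental HGC-27 value of TNC also lay under the floor. NEDD9 read 2667 with MIST1 and 2682 in the GFP control, against 1517 in parental cells, in AGS, and 77.5 and 90.6 against 6.83 in HGC-27. NPNT, which encodes the integrin ligand nephronectin, read 292 and 377 in the MIST1 and GFP control arrays of HGC-27 against 699 in parental cells, and was under the floor in AGS.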
